A study of Saccharomyces cerevisiae with 12 samples.

Results

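The genes of glycolysis, ethanol fermentation and the acetate branch of budding yeast, Saccharomyces cerevisiae, were followed through 12 libraries of RNA recovered with the RNA-binding proteins Npl3 and Mex67 or from a control without a tag. The 31 genes were taken by systematic name from a fixed list that runs from the hexokinases to pyruvate kinase and on to the pyruvate decarboxylases, the alcohol dehydrogenases, ALD6, ALD4 and ACS2. The rule itself uses no measured value. All 31 were found among the 7126 features counted, and 29 passed the filter on low counts. PDC6 and ADH2 did not pass it, with 0 to 5 and 0 to 7 counts per library.

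Npl3 was precipitated from strain HKY157 and Mex67 from strain HKY1266, while the control is labelled HKY36/HKY381. Every culture grew in YPD, a rich glucose medium, at 25 °C to log phase and was then divided between 25 °C and 42 °C for 30 min before UV cross-linking. The 6 groups of strain and temperature held 2 libraries each, called biological replicates in the series design. In what follows a culture is a strain with a replicate number, taken as 1 culture divided between the temperatures, which gives 6 cultures. The labels do not state how the replicates of a strain were kept apart, so p-values measure the spread between these libraries. The labels do not say which of the control strains gave which library, nor which samples met the c-myc antibody beads and which the GFP-Trap beads, and the ip label of the control reads none although the design counts it among the Co-IP samples. Differences of strain or beads therefore cannot be told apart from differences between the proteins. No library of total RNA was analysed here, so more of a message in the cell and more of it on the protein cannot be told apart, nor can fewer cells and less RNA per cell.

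Glycolysis splits glucose into pyruvate, and in yeast on glucose most of the pyruvate is decarboxylated to acetaldehyde and reduced to ethanol even when oxygen is present. Most steps are served by several isozymes, usually a major one used on glucose and minor ones used on other carbon sources, in slow growth or under stress. Npl3 is a nuclear mRNA-binding protein that recruits the export receptor Mex67, and Mex67 carries messages through the nuclear pore.

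Totals ran from 87741 to 1140349 counts per library, with the lowest in heated no-tag replicate 1. There 1 count was worth 16.7 CPM (the usual scaling of a count to its library's total, here with edgeR's TMM method), against 0.795 to 2.96 CPM in the other libraries. That library also stood apart in the heat markers. HSP26, a small heat shock protein gene, read 56.7 to 633 CPM at 25 °C, 3544 to 10305 CPM in 5 heated libraries and 300.4 CPM in heated no-tag replicate 1. HSP12 read 42.0 to 306, 2149 to 5727 and 300.4 CPM in the same order, and SSA4 read 75.1 to 599.6, 577 to 2936 and 317 CPM. Within no-tag culture 1 HSP26 still rose, by 2.42 on the log2 scale against 3.55 to 7.21 in the other cultures. There SSA4 rose from 221 to 317 CPM, while in Npl3 culture 1 it read 599.6 CPM at 25 °C and 577 CPM at 42 °C. The main results on heat are therefore also given without that library or its culture. STE2, a marker of a cells, read 0 to 7.73 CPM in replicate 1 of every group and 126 to 354 CPM in replicate 2, while STE3, a marker of alpha cells, read 1.24 to 467 and 12 to 334 CPM. By strain, STE3 read 299 to 467 CPM without a tag, 1.24 to 54.4 CPM with Npl3 and 23.3 to 201 CPM with Mex67. Its level thus differed between the Npl3 and no-tag libraries that are compared below. The part of mating type in the results was not tested. The message of NPL3 itself read 1301 to 2227 CPM in the Npl3 libraries and 381 to 681 CPM elsewhere. That of MEX67 read 92.5 to 211 CPM in the Mex67 libraries and 53.2 to 197 CPM elsewhere, so its ranges overlapped.

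A few of the 31 genes held most of the counts that fell on the pathway. The share of all counts was 11.6% ± 2.65 (SD, n = 2) in the no-tag control at 25 °C, 8.67% ± 3.07 with Npl3 and 10.4% ± 1.86 with Mex67. At 42 °C the shares were 11.7% ± 3.06, 8.67% ± 0.308 and 10.1% ± 0.663 in the same order. The change with heat was −0.0256 percentage points on average over the 6 cultures (exact sign-flip permutation test, two-sided, p = 0.969, adjusted p = 0.969 over 3 tests). Against the control, the Npl3 libraries differed by −2.96 points and the Mex67 libraries by −1.37 points. Neither difference passed an exact permutation test of 4 libraries against 4 (p = 0.143 and 0.314, adjusted p = 0.429 and 0.471, smallest possible p = 0.0286). That test treats the 2 libraries of a culture as separate. As shares of the counts on nuclear protein-coding genes alone, the differences were −6.11 points for Npl3 (exact p = 0.0286, adjusted p = 0.0857), −3.78 for Mex67 (0.0857 and 0.129) and 1.07 for heat (0.281 and 0.281). The 8 genes with the highest mean level per kilobase over the 12 libraries, the same 8 throughout, held 62.2% to 85.2% of the members' counts in a library. In heated Mex67 replicate 1, at 62.2%, TDH1 was outside these 8 with 10936 counts, above GPM1 among them with 4640.

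Levels per kilobase of coding length were averaged over the 12 libraries, and the order within some isozyme families differed between groups. Fructose-bisphosphate aldolase FBA1 averaged 11643 CPM per kb (SD 2536, n = 12) and the main glyceraldehyde-3-phosphate dehydrogenase TDH3 averaged 11626 (SD 4241). PDC1, the main pyruvate decarboxylase, stood at 8687 (SD 4911), followed by the enolase ENO2 at 8185 (SD 4189.5), the phosphoglycerate mutase GPM1 at 7490.0, the alcohol dehydrogenase ADH1 at 7299.6, the pyruvate kinase CDC19 at 7274 and the phosphoglycerate kinase PGK1 at 5544. Neighbours within these 8 lay closer than their SD over libraries.

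A middle group held TDH1, TPI1, TDH2 and ENO1 at 3073, 2812, 2670.3 and 2457 CPM per kb, then PGI1 at 1313, the sugar kinases HXK1, HXK2 and GLK1 at 889, 874 and 837, ALD6 at 830.0, and PFK2 and PFK1, the subunits of phosphofructokinase, at 593 and 483. ADH3, ACS2, EMI2, ADH4, ALD4 and GPM2 lay between 342 and 129. The lowest were ADH5 at 70.6, PYK2 at 51.3, GPM3 at 30.7 and PDC5 at 9.61 CPM per kb, with ADH2 at 3.19 and PDC6 at 1.54. The average hides turns of order within families. TDH1 averaged 884 CPM per kb and TDH2 3138 in the no-tag control at 25 °C, while TDH1 averaged 5606 (SD 4382) and TDH2 2712 in the Mex67 libraries at 42 °C. The turn with Mex67 rests on replicate 1, at 8696 and 2120 CPM, as replicate 2 read 2504 and 3298 CPM. Mex67 replicate 1 already read 4184 and 1848 CPM at 25 °C. In the Npl3 libraries at 42 °C the genes averaged 5243 and 1857 CPM per kb, with TDH1 above TDH2 in both replicates. HXK1 and HXK2 averaged 465 and 1149 in the no-tag control at 25 °C, and 1750.4 and 426 in the Npl3 libraries at 42 °C. ADH2, the glucose-repressed enzyme that oxidises ethanol, lay near the bottom of the list and ADH1 near its top.

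**Figure D1:**
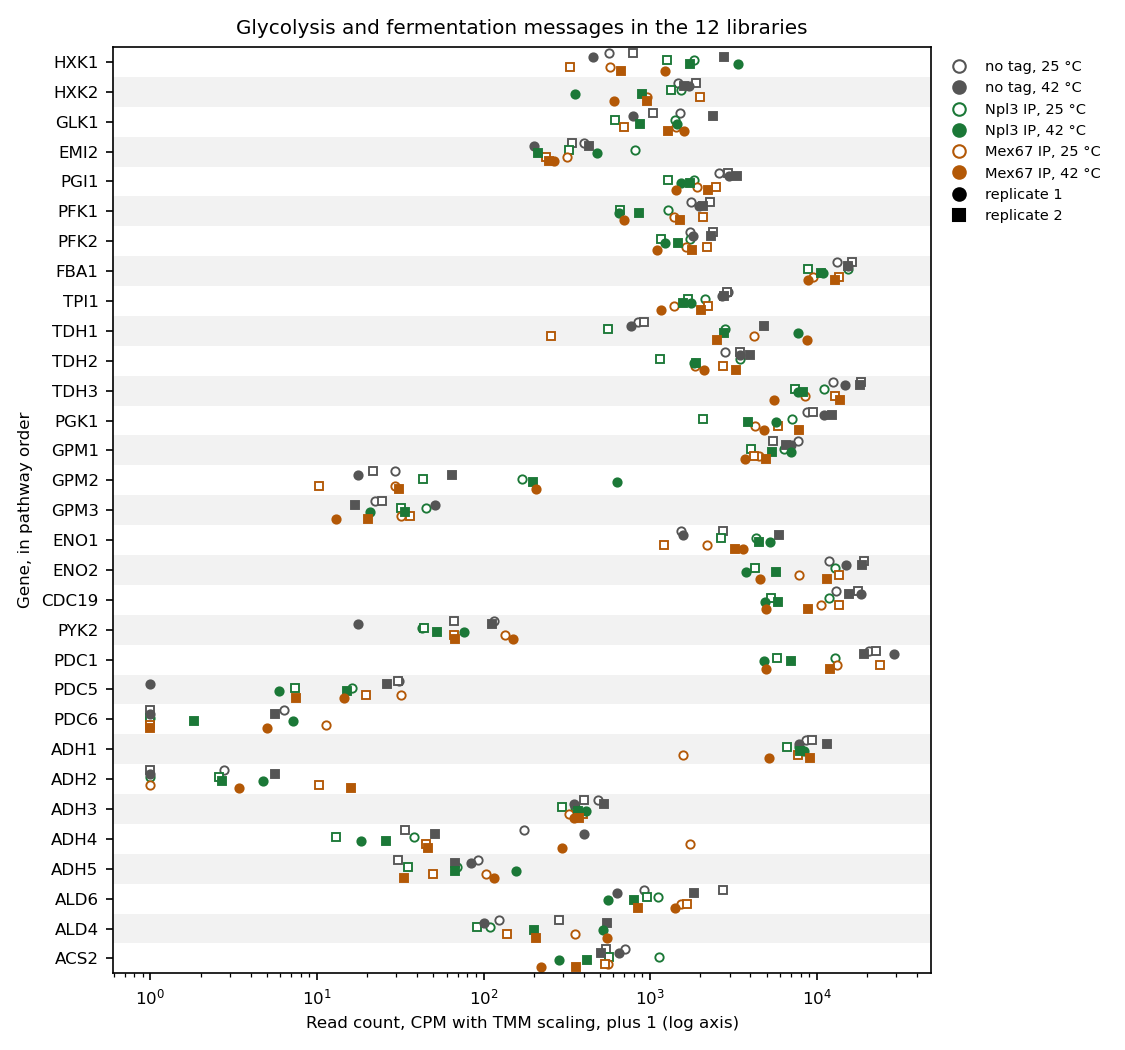
Level of each of the 31 genes in each of the 12 libraries, as TMM-scaled CPM plus 1 on a log axis, with genes in pathway order, colour for strain, open symbols for 25 °C and filled symbols for 42 °C. The levels run from 0 CPM for PDC6 and ADH2 in several libraries to 29051 CPM for PDC1 in heated no-tag replicate 1, and the symbols of GPM2, TDH1 and ADH4 are among the most spread.

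The first comparison asked what 30 min at 42 °C did to these messages, over the 3 strains together (6 libraries against 6). The genes with the highest log2 change were GPM2, TDH1, ALD4, HXK1 and ENO1, and those with the lowest were ACS2, which makes acetyl-CoA in the cytosol, and HXK2, the main hexokinase on glucose. No member passed the edgeR quasi-likelihood test after Benjamini-Hochberg adjustment over 5245 features (0 of 29, with 4 at an unadjusted p under 0.05). Of all features, 0.0381% passed, namely the cell wall gene PIR3 and HSP12, and 15.5% had an unadjusted p under 0.05. The median log2 change of the members was −0.06 against 0.01 for all features. Within single strains edgeR called 0 members in the no-tag control, the Npl3 IP and the Mex67 IP, where 0.0% of all features passed in each. Members with an unadjusted p under 0.05 numbered 0, 2 and 2, against 2.1%, 11.0% and 10.2% of all features. DESeq2 called 0 members within any strain, against 0.0%, 0.515% and 0.573% of the features it tested. Without heated no-tag replicate 1, edgeR gave adjusted p from 0.232 to 0.287 for GPM2, TDH1, ALD4, HXK1, ENO1 and ACS2, at 2.01, 1.8, 1.32, 1.28, 0.99 and −0.83. In that fit it called 0 of 29 members, with 7 at an unadjusted p under 0.05.

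Each culture was divided between the temperatures, so the change can be read within cultures. Of the 29 members, only ENO1 read higher at 42 °C in all 6 cultures, as 5.97% of all features did, and TPI1, ALD6 and ACS2 read lower in all 6, as 5.82% did. In the 5 cultures other than no-tag culture 1, 8 members read higher in each, against 13.0% of all features: HXK1, GLK1, TDH1, GPM2, ENO1, PYK2, ADH1 and ALD4. HXK2, TPI1, ALD6 and ACS2 read lower in each of these 5, against 13.0% of all features. No member separated the 6 heated from the 6 unheated libraries in either direction, as 0.248% of all features did upward and 0.419% downward. Without heated no-tag replicate 1, ACS2 alone separated them, downward, as 1.05% of all features did.

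**Figure D2:**
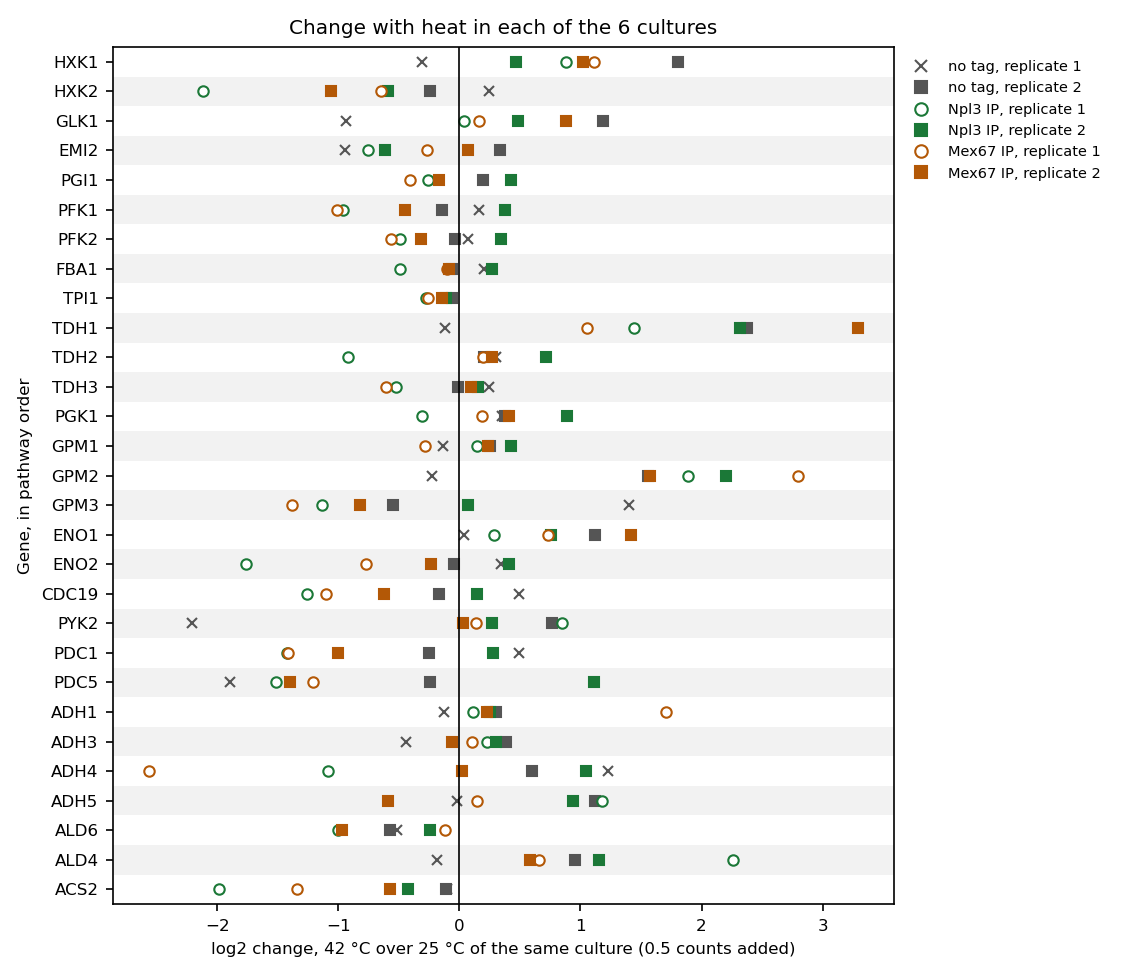
Log2 change from 25 °C to 42 °C of the 29 members that passed the low-count filter, with 1 symbol for each of the 6 cultures (0.5 counts added to each count). GPM2 and TDH1 lie at 1.55 or above and 1.06 or above in 5 cultures and at −0.22 and −0.12 in no-tag culture 1, and all 6 symbols of ACS2 lie below 0.

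Phosphorylation of glucose opens the pathway and is shared by the hexokinases HXK1 and HXK2, the glucokinase GLK1 and its paralogue EMI2. HXK1 (YFR053C, chromosome VI, 253592 to 255049, R64) read 567, 790.1, 1828, 1255, 569.7 and 329 CPM at 25 °C in no-tag, Npl3 and Mex67 replicates 1 and 2 in that order, and 451, 2771, 3372, 1732, 1230.1 and 667 CPM at 42 °C. HXK2 (YGL253W, chromosome VII, 23935 to 25395) read 1461, 1897, 1538, 1339, 956 and 1998 CPM at 25 °C and 1719, 1605, 354, 891, 609.9 and 957 CPM at 42 °C. The ranges overlapped for both genes, with HXK1 higher in 5 cultures and HXK2 higher in no-tag culture 1 alone. The log2 changes were 1.03 ± 0.42 (SE) for HXK1 and −0.71 ± 0.33 for HXK2 (edgeR adjusted p = 0.266 and 0.322). GLK1 read 618 to 1519.5 CPM at 25 °C and 784 to 2378 CPM at 42 °C, and EMI2 236 to 811 and 200.2 to 480.4 CPM.

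Upper glycolysis runs from glucose 6-phosphate to the triose phosphates, and none of its 5 genes passed the test. The log2 changes were −0.00 for the isomerase PGI1, −0.34 for PFK1, −0.17 for PFK2, −0.06 for FBA1 and −0.16 for the triose phosphate isomerase TPI1, with edgeR adjusted p from 0.648 to 0.999. Without heated no-tag replicate 1 the 5 values ran from −0.32 for PFK1 to 0.02 for PGI1. TPI1 read lower after heat in every culture, by 0.07 to 0.27 on the log2 scale.

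Lower glycolysis turns triose phosphate into pyruvate and holds most of the isozyme families. TDH1 (YJL052W, chromosome X, 338271 to 339269), the glyceraldehyde-3-phosphate dehydrogenase gene used outside fast growth, read 843, 923, 2830.4, 559.9, 4184 and 254 CPM at 25 °C and 768, 4803, 7679, 2796, 8696 and 2504 CPM at 42 °C, in the order of libraries given for HXK1. It was higher at 42 °C in every culture but no-tag culture 1, although the ranges of the temperatures overlapped. TDH2 and TDH3, which carry most of the activity in growing cells, stood at 0.06 and −0.09 on the log2 scale and TDH1 at 1.54 ± 0.73 (edgeR adjusted p = 0.967, 0.951 and 0.334).

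GPM2 (YDL021W, chromosome IV, 413953 to 414888), a homolog of the phosphoglycerate mutase GPM1 that arose by duplication and whose enzyme activity is in doubt, read 28.3, 20.7, 170.3, 42.3, 28.4 and 9.33 CPM at 25 °C. At 42 °C it read 16.7, 64, 631, 197, 206 and 30.1 CPM, where the 16.7 of no-tag replicate 1 was 1 count. Its log2 change was 1.90 ± 0.60 (edgeR adjusted p = 0.206), with the 2 temperatures overlapping. GPM1, the working mutase, stood at 0.10, and GPM3, another such homolog, at −0.54 (adjusted p = 0.930 and 0.423). ENO1 read 1206 to 4299.6 CPM at 25 °C and 1569 to 5978 CPM at 42 °C, a log2 change of 0.77 ± 0.39, against −0.38 for ENO2 (adjusted p = 0.361 and 0.7). PGK1, CDC19 and the minor pyruvate kinase PYK2 stood at 0.25, −0.44 and 0.19. Without heated no-tag replicate 1, GPM3 stood at −0.70 and TDH2 at 0.09 (adjusted p = 0.299 and 0.939).

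Pairing the libraries by culture changed the call for GPM2 and TDH1. With culture as a block, GPM2 rose by 1.83 ± 0.30 on the log2 scale (edgeR adjusted p = 0.0109) and TDH1 by 1.74 ± 0.42 (adjusted p = 0.0468), in a fit that called 2.84% of all features. Without both libraries of no-tag culture 1 the values were 2.03 ± 0.30 for GPM2 (adjusted p = 0.0141) and 2.12 ± 0.48 for TDH1 (adjusted p = 0.0730), with 1.03% of all features called, so TDH1 lost its call there and GPM2 kept it. Both blocked fits left fewer residual degrees of freedom than the 6 of the main fit. Without no-tag culture 1 the no-tag part of the change rests on 1 culture. Within the Npl3 cultures alone the blocked fit of all libraries called GPM2, at 2.04 ± 0.40 (edgeR adjusted p = 0.0278), among 0.877% of all features. It called no member in the no-tag control or the Mex67 IP, where it called 0.0% and 0.0572% of all features.

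In fermentation, pyruvate decarboxylase PDC1 read 5769 to 24082 CPM at 25 °C and 4809.7 to 29051 CPM at 42 °C, and ADH1, which makes ethanol, 1575 to 9348 and 5154 to 11538 CPM. Their log2 changes were −0.55 ± 0.41 and 0.30 ± 0.42 (edgeR adjusted p = 0.541 and 0.769). PDC5, the reserve decarboxylase, stood at −0.58, the mitochondrial ADH3 at 0.09, ADH5, a minor isozyme, at 0.44 and ADH4 at −0.56 ± 0.99, none past the threshold. Without heated no-tag replicate 1, PDC1 stood at −0.66, ADH1 at 0.38, PDC5 at −0.48 and ADH4 at −1.20 ± 0.98, again with none past it.

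The acetate branch makes acetate and acetyl-CoA from acetaldehyde. ALD4, the mitochondrial aldehyde dehydrogenase, read 122, 284, 108, 90.3, 351 and 138 CPM at 25 °C and 100.1, 551, 521, 201, 553 and 207 CPM at 42 °C, in the order of libraries given for HXK1. ACS2 (YLR153C, chromosome XII, 445524 to 447575) read 707, 544, 1124, 565, 557 and 534 CPM at 25 °C and 651, 503, 284, 419, 220.3 and 359 CPM at 42 °C. ALD4 was higher in 5 cultures, and the only heated ACS2 value inside the range at 25 °C was that of no-tag replicate 1. The log2 changes were 1.11 ± 0.44 for ALD4, −0.77 ± 0.28 for ACS2 and −0.55 ± 0.37 for the cytosolic ALD6 (edgeR adjusted p = 0.261, 0.226 and 0.492).

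The share of a step held by each isozyme was compared as a log2 ratio of counts within a library, where depth and scaling cancel (0.5 counts added to each gene). Isozymes have similar sequences, and how reads with several positions were counted is not given in the sources used here, so counts may be split between HXK1 and HXK2, the TDH, ENO and PDC genes, and ADH1 and ADH2. Per kilobase, HXK1 stood at 0.389 and 0.418 of HXK2 in the no-tag libraries at 25 °C and at 9.53 and 1.95 of it in the heated Npl3 libraries. TDH1 stood at 0.0197 to 0.494 of TDH3 at 25 °C and reached 1.56 of it in heated Mex67 replicate 1. ENO1 exceeded ENO2 in heated Npl3 replicate 1 alone, at 1.38 of its level.

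Over the 6 cultures the mean log2 change of the ratio with heat was 1.57 ± 1.21 (SD) for HXK1/HXK2, 1.84 ± 1.20 for TDH1/TDH3, 1.53 ± 1.02 for GPM2/GPM1 and 1.07 ± 0.88 for ENO1/ENO2. Each of these was positive in 5 cultures and negative in no-tag culture 1. The ALD4/ALD6 ratio was positive in all 6, at 1.47 ± 1.00, and EMI2/GLK1 negative in all 6, at −0.67 ± 0.39. In no-tag culture 1 the EMI2/GLK1 change was only −0.01, with 12 and 47 counts at 42 °C, so its common sign is weakly held there. An exact sign-flip permutation test (two-sided) gave p = 0.03125 for the last pair of ratios, the smallest that 6 cultures allow, and 0.0625 for the other four. After adjustment over the 14 ratios, the p-values were 0.146 for all 6 of these ratios, and 0 of 14 passed, with 2 at an unadjusted p under 0.05. A ratio could pass only if most of the others reached the smallest p too, so this count cannot show a lack of change. The other 8 ratios had exact permutation p = 0.0938 or above.

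Without no-tag culture 1, 9 of the 14 ratios had the same sign in all 5 cultures, which is the smallest exact permutation p that 5 cultures allow (0.0625, adjusted p = 0.0972). Their mean changes were 1.99 ± 0.70 for HXK1/HXK2, 2.28 ± 0.58 for TDH1/TDH3, 1.85 ± 0.73 for GPM2/GPM1, 1.34 ± 0.64 for ENO1/ENO2, 1.01 ± 0.74 for PYK2/CDC19, 1.70 ± 0.93 for ALD4/ALD6 and 1.84 ± 1.8 for PDC6/PDC1. EMI2/GLK1 and GPM3/GPM1 stood at −0.80 ± 0.24 and −0.92 ± 0.36. PDC6/PDC1 rests on 0 to 5 counts of PDC6 per library.

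**Figure D3:**
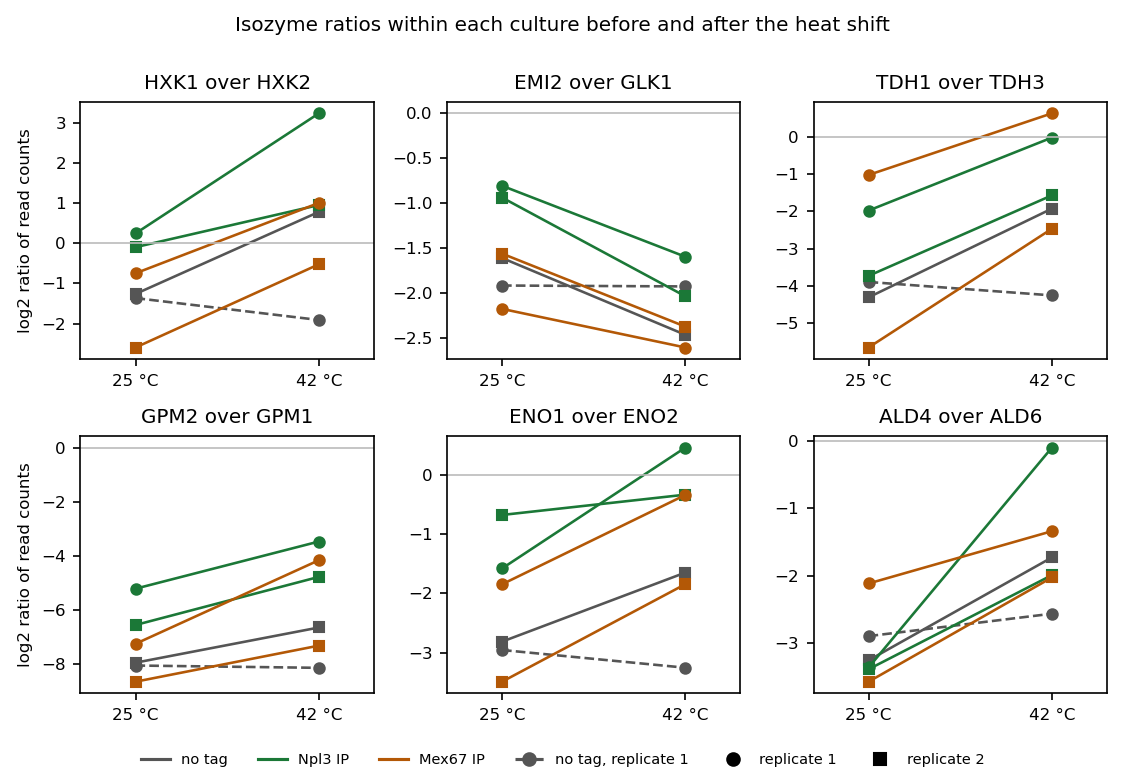
Log2 ratio of the read counts of 6 isozyme pairs at 25 °C and 42 °C, with a line for each of the 6 cultures and a grey line at a ratio of 1. In the HXK1/HXK2, TDH1/TDH3, GPM2/GPM1 and ENO1/ENO2 panels 5 lines go up and the dashed line of no-tag culture 1 goes down, while ALD4/ALD6 goes up in all 6 cultures and EMI2/GLK1 goes down, by only 0.01 in no-tag culture 1.

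The second comparison set the RNA recovered with Npl3 against the no-tag control, over both temperatures (4 libraries against 4). The 4 libraries of a strain are taken as 2 cultures. The main fits for this comparison and for those with Mex67 over both temperatures hold no term for culture. PDC1 was 3.08-fold lower and PFK1 2.37-fold lower, and GPM2 was 5.80-fold higher. These 3 were the members called by edgeR, 1 higher and 2 lower of 29, in a fit that called 23.5% of all features, 15.5% higher and 7.95% lower. At an unadjusted p under 0.05 there were 8 members, against 37.8% of all features, and the median log2 difference of the members was −0.56 against 0.03 for all features. DESeq2 called 7 members (22.1% of all features), the same 3 and, lower, PGI1, ENO2, PGK1 and CDC19. At 25 °C alone edgeR called 0 members, against 2.4% of all features (2.27% higher and 0.133% lower). There 1 member had an unadjusted p under 0.05, against 20.6% of all features, and DESeq2 called 0, against 7.03% of the features it tested. At 42 °C alone edgeR called 0 members, against 7.47% of all features (6.54% higher and 0.934% lower). Members with an unadjusted p under 0.05 numbered 6, against 28.1% of all features. There DESeq2 called 5 members (12.7% of the features it tested): PFK1, ENO2, CDC19 and PDC1 lower and GPM2 higher.

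PDC1 (YLR044C, chromosome XII, 232390 to 234081) read 20673, 22803, 29051 and 19115 CPM in the no-tag libraries, taken as 25 °C replicates 1 and 2 and then 42 °C replicates 1 and 2, and 12914, 5769, 4809.7 and 6997 CPM in the Npl3 libraries. PFK1 (YGR240C, chromosome VII, 970771 to 973734), which codes for the alpha subunit of phosphofructokinase, read 1757, 2293, 1952 and 2076 CPM without a tag and 1273, 657, 654 and 853 CPM with Npl3. The groups did not overlap for either gene. GPM2 read 28.3, 20.7, 16.7 and 64 CPM without a tag and 170.3, 42.3, 631 and 197 CPM with Npl3, so the lowest Npl3 library lay below the highest control. The control values of GPM2 rest on 16, 7, 1 and 28 counts, so its fold is loosely measured.

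The log2 differences were −1.62 ± 0.51 (SE) for PDC1 (edgeR adjusted p = 0.0374), −1.24 ± 0.40 for PFK1 (0.0413) and 2.54 ± 0.74 for GPM2 (0.0336). Leaving out 1 library at a time kept their signs, at −1.97 to −1.39, −1.52 to −1.04 and 1.88 to 3.34, but ended calls. PDC1 was not called without any 1 of the 4 no-tag libraries, Npl3 replicate 2 at 25 °C or either Npl3 replicate at 42 °C. The same libraries and Mex67 replicate 1 at 25 °C ended the call of PFK1, and any 1 of the 4 no-tag libraries or Npl3 replicate 1 at either temperature ended that of GPM2. Adjusted p over these settings ranged from 0.0134 to 0.158. With offsets corrected for gene length all 3 missed the threshold, at 0.0626, 0.0940 and 0.0542, and the fit called 15.5% of all features. Without the filter on low counts GPM2 alone of the 3 missed it, at 0.0929.

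In pathway order, the sugar kinases were mixed: HXK1 stood at 0.91 ± 0.52 and EMI2 at 0.34 ± 0.38, HXK2 at −0.82 ± 0.41 and GLK1 at −0.40 ± 0.46, none past the edgeR threshold. All 5 genes of the upper pathway stood below 0, from −0.40 for FBA1 to −1.24 for PFK1. Of the 11 genes of lower glycolysis, 7 stood below 0, the lowest being ENO2 at −1.35 ± 0.53 (adjusted p = 0.0784), CDC19 at −1.25 ± 0.46 (0.0652) and PGK1 at −1.14 ± 0.48 (0.0986), and TDH1, GPM2, GPM3 and ENO1 stood above it. In fermentation PDC1 was lower and 5 of the 6 genes tested stood below 0, with ADH1 at −0.28 and ADH5 at 0.15. ALD6, ALD4 and ACS2 stood at −0.85, −0.50 and −0.14.

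In every Npl3 library 8 members read lower than in any no-tag library, as 12.4% of all features did: PGI1, PFK1, PFK2, TPI1, TDH3, PGK1, CDC19 and PDC1. None read higher in this way, as 15.3% of all features did. With total counts in place of TMM scaling, the median of all features moved to 0.36 and that of the members to −0.23, with 11 of 29 members above 0 in place of 7, and 1111 of the 1229 features called were higher in place of 814 of 1231. PFK1 and PDC1 then stood at −0.90 (adjusted p = 0.0965) and −1.25 (adjusted p = 0.05001), and GPM2 remained called, at 2.82 (adjusted p = 0.0279).

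**Figure D4:**
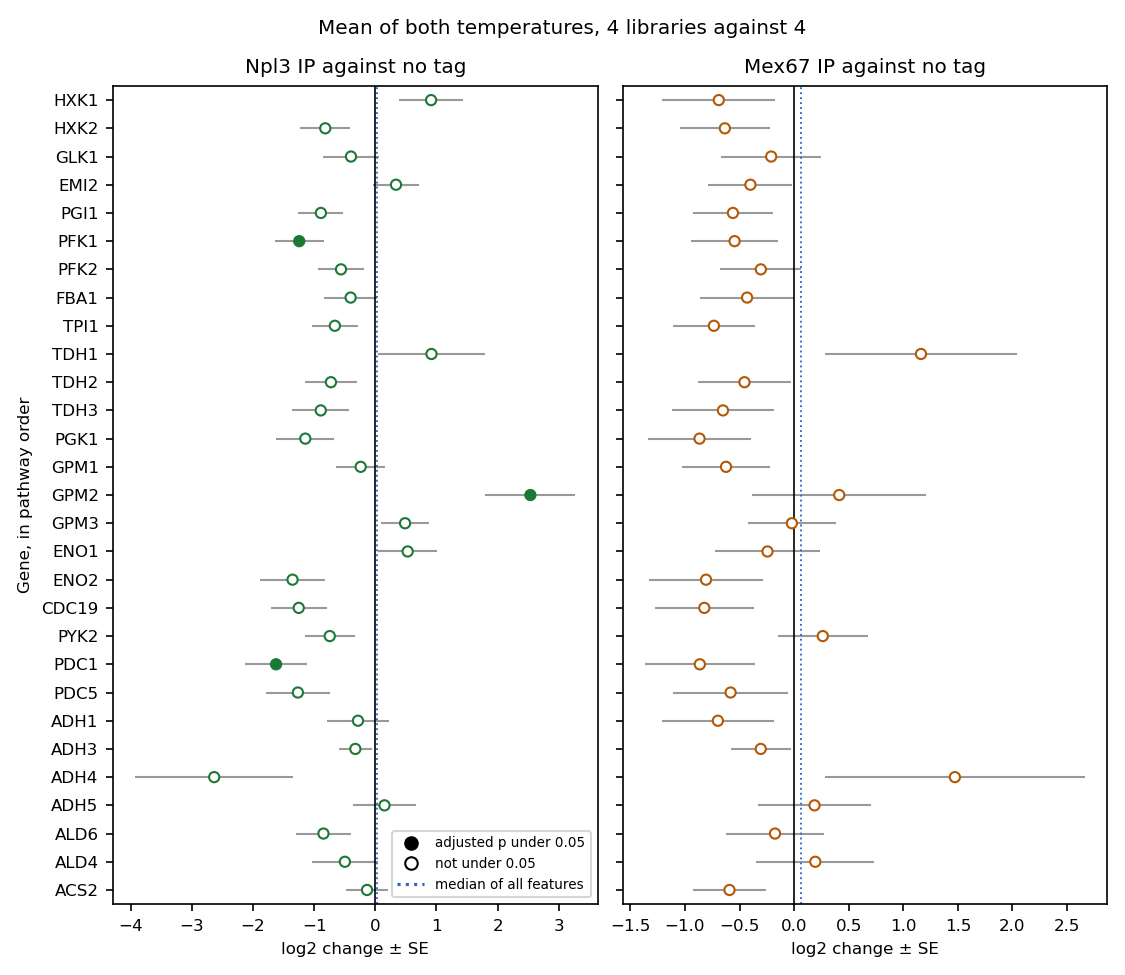
Log2 difference (± SE) of the 29 tested members between Npl3 (left) or Mex67 (right) and the no-tag control, mean of both temperatures, with filled points for an edgeR adjusted p under 0.05 and a dotted line at the median of all features. GPM2 at 2.54, PFK1 at −1.24 and PDC1 at −1.62 are filled in the Npl3 panel, no point is filled in the Mex67 panel, and both panels use the same 4 control libraries.

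The isozyme ratios against no tag followed these differences. ENO1/ENO2 was −0.53 ± 0.85 (SD, n = 4) with Npl3 and −2.67 ± 0.70 without a tag, GPM2/GPM1 was −5.00 ± 1.27 and −7.69 ± 0.70, and PFK1/PFK2 was −0.73 ± 0.20 and −0.01 ± 0.11. The groups did not overlap for these 3 pairs, which gave the smallest exact permutation p of 0.0286 (adjusted p = 0.267 over 28 tests). HXK1/HXK2 and TDH1/TDH3 differed by 2.03 and 1.78 with overlap (exact p = 0.0857, adjusted p = 0.4). For Mex67 the lowest exact p was 0.0571, for PFK1/PFK2 at −0.29. After adjustment 0 of 28 ratios passed, with 3 at an unadjusted exact p under 0.05. With so high a smallest p, a ratio could pass only if most of the others separated fully too, so this count cannot show a lack of difference. Per kilobase, the ratio of the phosphofructokinase subunit genes PFK1 and PFK2 was 0.875 to 1.05 without a tag and 0.518 to 0.717 with Npl3.

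The third comparison set Mex67 against the same no-tag libraries, so it is not independent of the one for Npl3. No member was called over both temperatures by edgeR (0 of 29, with 0 at an unadjusted p under 0.05). DESeq2 also called 0, but gave an adjusted p to only 364 features, of which it called 11.0%. By edgeR 0.0% of all features were called and 12.3% had an unadjusted p under 0.05. The median log2 difference of the members was −0.45 against 0.07 for all features, and 6 of 29 stood above 0. With total counts in place of TMM scaling these medians were −0.05 and 0.49, with 13 of 29 above 0. At 25 °C edgeR called 0 members (0.0% of all features) and DESeq2 0, and 0 had an unadjusted p under 0.05, against 3.89% of all features. At 42 °C edgeR called 0 (0.0%) and 0 had an unadjusted p under 0.05, against 11.5%. There DESeq2 called 2, PDC1 and CDC19, both lower, among 14.4% of the features it tested.

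The lowest values with Mex67 were −0.87 ± 0.47 for PGK1, −0.86 ± 0.50 for PDC1, −0.82 ± 0.46 for CDC19 and −0.81 ± 0.52 for ENO2, and the highest were 1.47 ± 1.19 for ADH4 and 1.16 ± 0.88 for TDH1 (edgeR adjusted p from 0.473 to 0.650). PGI1, TPI1, PGK1 and GPM1 read lower in every Mex67 library than in any no-tag library, as 2.17% of all features did, and no member read higher in this way, as 3.74% did. PGK1, for example, read 8708, 9522, 11079.7 and 12375 CPM without a tag and 4259, 5893, 4843 and 7838 CPM with Mex67, in the order given for PDC1. TPI1 read 2928, 2894, 2686 and 2766 CPM without a tag and 1392, 2225, 1165 and 2007 CPM with Mex67.

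Set directly against each other, Mex67 and Npl3 differed in 1 member by edgeR. HXK1 read 569.7, 329, 1230.1 and 667 CPM with Mex67 and 1828, 1255, 3372 and 1732 CPM with Npl3, in the order given for PDC1. All 4 Mex67 libraries lay below all 4 Npl3 libraries, as they did for 13.8% of all features, and HXK1 was 3.04-fold lower with Mex67, at −1.60 ± 0.53 on the log2 scale (edgeR adjusted p = 0.0450). The fit called 22.0% of all features, 7.55% higher and 14.4% lower with Mex67, and 4 members against 36.6% of all features had an unadjusted p under 0.05. DESeq2 called 3 members (19.5% of all features), HXK1 and GPM2 lower and ADH4 higher. Leaving out any 1 of the no-tag libraries at 25 °C, the Npl3 or Mex67 libraries at 25 °C, Npl3 replicate 1 at 42 °C or Mex67 replicate 2 at 42 °C ended the call of HXK1, with values from −1.83 to −1.32 and adjusted p from 0.0227 to 0.142 over all 12 libraries left out. With total counts or a filter at a mean of 50 counts HXK1 also missed the threshold, at −1.46 (edgeR adjusted p = 0.0782) and −1.57 (0.0511). GPM2 stood at −2.12 ± 0.70 (adjusted p = 0.0539) and ADH4 at 4.11 ± 1.29 (adjusted p = 0.0550).

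Whether heat acted differently on the RNA with each protein was tested as an interaction. No member passed for Npl3 against no tag, Mex67 against no tag or Mex67 against Npl3 (edgeR and DESeq2 called 0 in each), and none had an unadjusted p under 0.05. Of all features 0.0% passed in each by edgeR, and 2.92%, 3.55% and 1.3% had an unadjusted p under 0.05. Without heated no-tag replicate 1 edgeR again called 0 members in each, with 0 at an unadjusted p under 0.05.

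ADH4 is an alcohol dehydrogenase unrelated in sequence to ADH1, and replicates of the same group lay far apart. It read 1740.2 CPM in Mex67 replicate 1 at 25 °C and 293 CPM in Mex67 replicate 1 at 42 °C, and 174 and 400.5 CPM in no-tag replicate 1 at 25 °C and 42 °C. In the other 8 libraries it read 12 to 50.3 CPM. ADH1 showed its lowest value, 1575 CPM, in the library where ADH4 was highest, against 5154 to 11538 CPM in the others. Per kilobase, ADH4 (YGL256W, chromosome VII, 15159 to 16307, coding length 1149 bases) and ADH1 (YOL086C, chromosome XV, 159548 to 160594, coding length 1047 bases) stood at 1515 and 1504 in that library. These libraries are all of replicate 1, but both Npl3 replicate 1 libraries read 37.4 and 17.3 CPM for ADH4. Mex67 replicate 2 read 44.3 and 45.2 CPM, so all 4 Mex67 libraries lay above all 4 Npl3 libraries, as they did for 10.1% of all features. The log2 difference of ADH4 for Mex67 against Npl3 has an SE of 1.29, against 0.27 for ADH3.

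**Figure D5:**
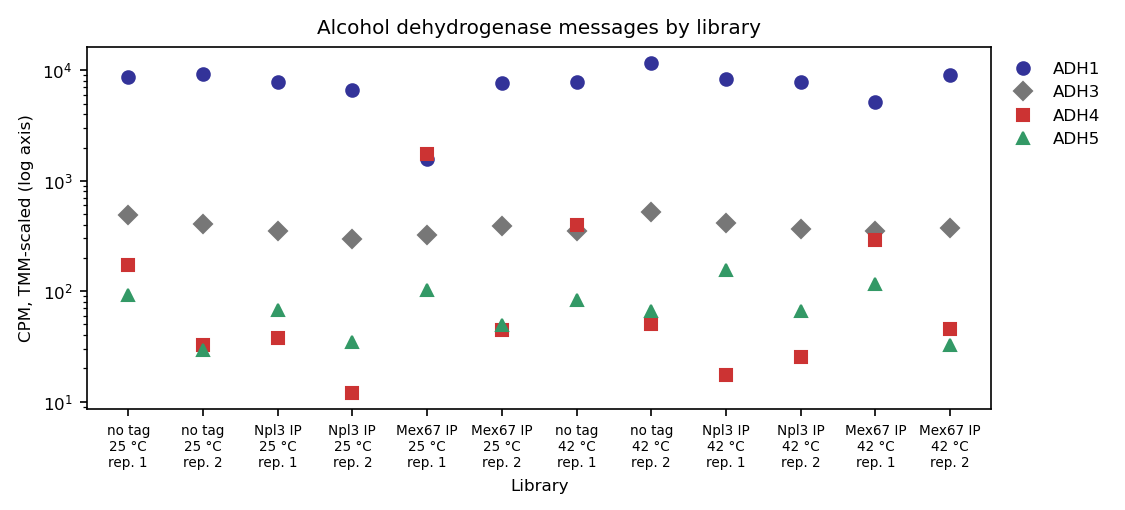
TMM-scaled CPM (log axis) of ADH1, ADH3, ADH4 and ADH5 in each of the 12 libraries. ADH4 stands at 174 to 1740.2 CPM in replicate 1 of the no-tag control and of Mex67 and at 12 to 50.3 CPM in the other 8 libraries, and ADH1 is at 1575 CPM in Mex67 replicate 1 at 25 °C.

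ADH3 read 296 to 526 CPM over the 12 libraries. ADH5 read 29.6 to 155 CPM and was higher after heat in 4 of 6 cultures. ADH2 read 0 to 15.1 CPM, with both of the highest values in Mex67 replicate 2 (9.33 and 15.1 CPM, or 4 and 7 counts), and PDC6 0 to 10.3 CPM. PDC5 read 0 to 30.9 CPM, and its 0 in heated no-tag replicate 1 allows up to 50.1 CPM, the worth of 3 counts there.

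Genes around the pathway were read from a list of 32, of which 31 were tested. For heat over the 3 strains edgeR called 0 of 31, against 0.0381% of all features. There 14 had an unadjusted p under 0.05, against 15.5% of all features. DESeq2 called 1 there, against 9.67% of the features it tested, and 3 in the Npl3 IP alone, against 0.515%. For Mex67 against no tag over both temperatures edgeR called 0 (0.0% of all features), with 6 at an unadjusted p under 0.05, against 12.3%. DESeq2 called 0 there, against 11.0% of the 364 features it tested, and 1 at 42 °C alone, against 14.4%. Against no tag, Npl3 libraries had 1 of the 31 higher and 6 lower over both temperatures by edgeR. There 15.5% of all features were called higher and 7.95% lower. DESeq2 called 8, against 22.1% of all features. FBP26, which codes for fructose-2,6-bisphosphatase, was higher at 1.38 ± 0.35 (adjusted p = 0.0155). The 6 lower genes were PGM1 (phosphoglucomutase) at −1.77 ± 0.51, TKL1 (transketolase) at −1.72 ± 0.39, PDB1 and PDA1 (subunits of pyruvate dehydrogenase) at −1.31 ± 0.26 and −1.22 ± 0.30, ALD5 (a mitochondrial aldehyde dehydrogenase) at −1.27 ± 0.29 and PYC2 (pyruvate carboxylase) at −1.21 ± 0.32, with adjusted p from 0.00481 to 0.0271. At 42 °C alone FBP26 was higher at 2.51 ± 0.54, and TKL1 and PDB1 were lower at −2.03 ± 0.56 and −1.35 ± 0.37 (edgeR adjusted p = 0.0222, 0.0463 and 0.0464), in a fit that called 7.47% of all features. DESeq2 called 7 there, against 12.7% of the features it tested. With Mex67 against Npl3, PYC1, ALD5 and PDA1 were higher at 1.75 ± 0.50, 1.28 ± 0.28 and 0.89 ± 0.30 (edgeR adjusted p = 0.0250, 0.00753 and 0.0468), in a fit that called 22.0% of all features. DESeq2 called 4 there, against 19.5% of all features.

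All 17 messages of regulators of the pathway were tested. For Npl3 over both temperatures edgeR called 3 of them, 1 higher and 2 lower, against 15.5% of all features higher and 7.95% lower. DESeq2 called 2 there, against 22.1% of all features. At 25 °C alone and for Mex67 against Npl3 edgeR called 1 each, in fits that called 2.4% and 22.0% of all features. DESeq2 called 1 each, against 7.03% and 19.5% of the features it tested. For Npl3 at 42 °C alone DESeq2 called 1, against 12.7% of the features it tested, and edgeR 0, against 7.47%. By edgeR, Npl3 libraries over both temperatures had MTH1, a corepressor of glucose transporter genes, higher at 2.50 ± 0.78 (adjusted p = 0.0423). ADR1, the activator of ADH2 and other glucose-repressed genes, was lower at −1.26 ± 0.35 (0.0207) and SNF1, the kinase that relieves glucose repression, lower at −0.82 ± 0.27 (0.0443). ADR1 was also lower at 25 °C alone, at −2.25 ± 0.50 (0.0387). RGT1, the repressor that works with MTH1, was higher with Mex67 than with Npl3, at 0.84 ± 0.25 (0.0291). GCR1, GCR2, TYE7 and RAP1, known as activators of the glycolytic genes, were not called by edgeR in any comparison. For heat over the 3 strains edgeR called 0 of 17 regulators, with 3 at an unadjusted p under 0.05, against 15.5% of all features. DESeq2 called 0 there, against 9.67% of the features it tested. For heat in the Npl3 IP alone DESeq2 called 1 regulator, against 0.515% of all features.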

How the data were processed

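The 12 libraries of TruSeq cDNA, made without rRNA depletion per the labels' protocols, were deposited by the authors as whole-number counts per feature, 1 table per library. Per the submitters' processing notes, the tools named were STAR, CASAVA 1.8.2, DESeq2 and featureCounts (Subread 1.5.0-p1), with build R64, and alignment options, strand setting and the handling of reads with several positions are not given in the sources used here. Features were joined to RefSeq genes of R64 by locus tag (6048) or symbol (119), 959 stayed unmatched, and coordinates are those of that table. GLK1 overlaps YCL042W (at most 7 counts per library).

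Counts were tested in R 4.3.3 with edgeR 4.0.16 (glmQLFit, robust, TMM, filterByExpr with 10 counts and 15 in total, 5245 features), with 1 mean per group, 6 residual degrees of freedom and a common biological coefficient of variation of 0.356. Benjamini-Hochberg adjustment at 0.05 ran over all features in each of 14 comparisons. In some comparisons the filter of DESeq2 gave no adjusted p to part of the features, which it then could not call. It gave one to 1076 features for heat and to 364 for Mex67 over both temperatures. SE is the log2 change over the square root of F. Exact permutation tests were run in Python 3.11.15 (scipy 1.17.1). The scripts were tested on simulated data.

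The members and lists were chosen with earlier results of these data known. All 31 members are named, with the called genes of the lists (up to 6 per list) and HSP26, and PIR3, HSP12, the markers and the zinc genes outside this rule. Deviations of same-numbered libraries at 25 °C and 42 °C correlated at 0.266 in the no-tag strain, 0.114 in the Npl3 strain and 0.601 in the Mex67 strain (2247 genes), and the growth protocol says that cells were split, so culture is used as a block for heat. Between strains they correlated at −0.174 to 0.455, not all above 0.1, so numbers were not taken to pair strains in the main fits, although STE2 separated replicate 1 from replicate 2 in every strain. For comparisons other than heat and its interactions, the alternative called the replicate block was a term for replicate number shared by the strains. Alternatives were DESeq2 1.42.0, RLE factors, total counts, fits to the compared groups alone, no filter, a filter at a mean of 50 counts, length-corrected offsets, the replicate block, 2 counts added to ratios, coding genes as the denominator and each library left out. The comparison of the heat changes of Mex67 and Npl3 and the block without no-tag culture 1 were chosen after the data were seen. Sequences and promoter motifs were not analysed here.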

Additional observations from a re-analysis of the deposited data

Results flagged for a closer look

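The ADH5/ADH1 ratio moved with heat in opposite directions in different strains, and these differences were not tested. In both no-tag cultures its log2 change was above 0, at 0.11 and 0.81, in both Npl3 cultures too, at 1.07 and 0.69, and in both Mex67 cultures below 0, at −1.56 and −0.81. The mean change was higher by 1.65 in the no-tag control and by 2.07 in the Npl3 IP than in the Mex67 IP. The first Mex67 value includes the library with 1575 CPM of ADH1. ADH5 held few counts at 25 °C and 42 °C: 52 and 5 in no-tag culture 1, 10 and 29 in no-tag culture 2, and 21 and 15 in Mex67 culture 2. The level of ADH5 by itself passed no test of the interaction.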

How the results depend on the processing

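With DESeq2 the members called were 7 for Npl3 over both temperatures (3 in edgeR), 5 for Npl3 at 42 °C (0), 2 for Mex67 at 42 °C (0) and 3 for Mex67 against Npl3 (1). With total counts they were 1 for Npl3 and 0 for Mex67 against Npl3, with only the groups compared 6, and 2 for both Npl3 at 42 °C and Mex67 against Npl3, with a mean of at least 50 counts 2 for Mex67 against Npl3, and with length-corrected offsets 0 for Npl3. The replicate block called 2 for heat (1 without no-tag culture 1), 1 for heat in the Npl3 IP, 1 for Npl3 at 42 °C and 3 for Mex67 against Npl3, the added ones being GPM2 at −2.17 (adjusted p = 0.00413) and ADH4 at 3.18 (0.0213). Leaving out 1 library gave 0 to 1 for heat (1 without Mex67 replicate 2 at 42 °C), 0 to 1 for Npl3 at 42 °C, 0 to 5 for Npl3 and 0 to 2 for Mex67 against Npl3. The cause of these moves was not tested. For Npl3 at 42 °C and for Mex67 against Npl3 the replicate block was a term for replicate number shared by the strains, not for culture as with heat. The heat change of the members' share turned to 1.07 points with coding genes as the denominator (exact permutation, adjusted p = 0.281) and ran from −0.510 to 0.445 points with single libraries left out. Over all features, calls for Npl3 at 25 °C moved from 126 to 283 (DESeq2), 300 (block), 263 (no filter), 223 (only the groups compared), 214 (total counts) and 1 (length), and at 42 °C from 392 to 659 (total counts) and 0 (length). They moved from 1231 to 813 (length) and 757 (mean of 50) for Npl3, from 1152 to 639 and 602 for Mex67 against Npl3, from 0 to 38 and 40 with DESeq2 for Mex67 at 42 °C and over both temperatures, and for heat from 2 to 104 (DESeq2), 149 (block) and 21 (no filter). With single libraries left out these counts ran from 0 to 298 for Npl3 at 25 °C (0 without either no-tag library or Npl3 replicate 1 at 25 °C), from 0 to 667 at 42 °C (0 or 1 without either no-tag library or Npl3 replicate 1 at 42 °C), from 482 to 1322 for Npl3, from 563 to 1199 for Mex67 against Npl3, from 0 to 35 for Mex67 (35 without Mex67 replicate 2 at 42 °C), and from 0 to 224 for heat (224 without Mex67 replicate 2 at 42 °C). The replicate block changed no other count of members called by over 1.5 times.

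With 2 libraries per group and 87741 counts in the shallowest, differences in PDC5, PDC6, ADH2 and GPM3 were hardly measurable. GPM2 also held only 1 to 28 counts in the no-tag libraries.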

Other observations

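The libraries with high ADH4 also read high for genes of zinc uptake, which were chosen after these values were seen. ZRT1, the high-affinity zinc transporter gene, read 2483 and 1087 CPM in Mex67 replicate 1 at 25 °C and 42 °C and 478 and 1185 CPM in no-tag replicate 1, against 16.8 to 67.6 CPM in the other 8 libraries. ZPS1, a cell wall protein gene of the zinc regulon, read 2586, 279, 213 and 467 CPM in the same 4 libraries and 0 to 16.6 CPM in the others. ZAP1, the activator of that regulon, read 147, 162, 35.4 and 83.4 CPM in the same order and 19.4 to 43.0 CPM in the others. Their part in the values of ADH4 was not tested.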
